A study of Glycine max with 30 samples.

Results

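Trimethylation of histone H3 at lysine 27 (H3K27me3) was compared between 8-day-old soybean seedlings and embryos at late maturation, the stage at which the seed turns yellow and dries. The material was the authors' list of enriched islands for each stage. A list entry, or island, is a run of 200 bp windows rich in ChIP reads, in which gaps of up to 600 bp were bridged. Its ChIP reads and H3 control reads were counted over the whole island. Islands in the lowest 5% of each list by ChIP over control reads were dropped. This left 18724 of 19708 seedling islands and 16477 of 17345 late maturation islands, which makes 35201 of the 88315 H3K27me3 islands deposited for the 5 stages of the series. At the threshold, the ratio was 0.7836 for the last seedling island removed and 0.7838 for the first one retained, and 0.66294 and 0.66296 for those at late maturation. Of the removed islands, 310 of 984 in the seedling list and 474 of 868 in the late maturation list had a false discovery rate above 0.05, and none of the retained ones did.

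All plants were of the cultivar Williams 82 and grown in a greenhouse. Seedlings were collected 8 days after sowing, and late maturation embryos came from yellow seeds of 230 to 500 mg. Each stage had 2 replicates precipitated with an antibody to H3K27me3 and 2 with an antibody to total H3, the control. Earlier embryos, used below for reference, were dissected from seeds of 2.5 to 3.5 mm (cotyledon stage), of 6 to 7 mm (early maturation) and of 200 to 250 mg (mid-maturation). The seedling tissue and these embryos were fixed in 1% formaldehyde for 10 minutes under vacuum. The late maturation embryos were first frozen and ground, then crosslinked on ice for 15 minutes, and their nuclei were purified on a density gradient, so stage and chromatin preparation cannot be told apart in this comparison. Each list pools both replicates. No spread between replicates could be computed, no difference was tested, and the 95% Wilson intervals given for shares cover counting error only.

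H3K27me3 is deposited by Polycomb repressive complex 2, whose catalytic subunits in plants are homologues of the Drosophila protein Enhancer of zeste, and it is typically found over genes that are switched off. In plants it often covers the body of a gene and can spread over neighbouring genes to form a wide domain. In Arabidopsis the complex is known for shutting down the embryonic and seed maturation programme after germination. The transcription factor genes LEC1, FUS3 and ABI3, which run seed maturation, are classical targets there. H3K4me3, the other mark of the series, lies at the start of transcribed genes.

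The islands that were used held 9997729 ChIP and 6299121 control reads in seedlings, and 8184674 ChIP and 5677620 control reads at late maturation. The median island held 312 ChIP and 237 control reads in seedlings, against 284 ChIP and 240 control reads at late maturation. The median of ChIP over control was 1.39 in seedlings and 1.26 at late maturation. Throughout, relative enrichment means the ratio of ChIP to control reads of an island divided by the median of that ratio in its own list, so a value of 1 is a typical island of that stage. A change common to all islands would not be visible on this scale. The lists use 20 chromosomes and no scaffold. Genes at the islands were not analysed here, since the lists name no genome build.

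Seedling islands were more numerous but shorter. They covered 81.2 Mb in all, with a median width of 3000 bp (quartiles 1800 and 5400 bp). The late maturation islands covered 98.2 Mb, with a median width of 4200 bp (quartiles 2400 and 7600 bp). Islands of at least 20 kb numbered 202 in seedlings and 522 at late maturation, and the widest island measured 76800 bp in seedlings and 93800 bp at late maturation.

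Most of the H3K27me3 landscape was shared between both stages. Of the seedling islands, 15373 overlapped a late maturation island by at least 1 bp, which is 82.1% (81.5 to 82.6). Of the late maturation islands, 13362 were kept in this sense, or 81.1% (80.5 to 81.7). The remaining 3351 seedling islands were gained, 17.9% of that list, and 3115 late maturation islands were lost, 18.9% of that list. Gained and lost islands were thus present in nearly equal shares of the 2 lists.

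Turnover was concentrated in short and weak islands. Gained islands had a median width of 1800 bp and a median relative enrichment of 0.811, against 3400 bp and 1.05 for the seedling islands that overlapped a late maturation island. Lost islands had a median width of 2400 bp and a median relative enrichment of 0.784, against 5000 bp and 1.07 for the kept late maturation islands. Gained islands made up 7.18 Mb, or 8.84% of the covered bases of the seedling list, and lost islands 8.47 Mb, or 8.62% of those of the late maturation list. Below 2 kb, 34.2% of the seedling islands were gained and 39.3% of the late maturation islands were lost. From 10 to 20 kb, 1 of 1336 seedling islands was gained and 13 of 2138 late maturation islands were lost. None of the 202 seedling islands and none of the 522 late maturation islands of at least 20 kb lacked a counterpart, where a count of 0 allows a share of up to 1.87% and 0.731% (upper Wilson limits). An overlap of 1 bp is easier to meet for a wide island than for a short one. The part of this rule in the differences by width was not tested.

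A part of the gained and lost islands touched dropped ones or had near neighbours. Of the gained islands, 315 (9.40%) overlapped a late maturation island that had been dropped for low enrichment, and of the lost islands, 294 (9.44%) overlapped a dropped seedling island. Gained islands lay at a median distance of 10600 bp from the nearest late maturation island, and 9.91% of them lay within 1 kb of one. Lost islands lay at a median distance of 7800 bp from the nearest seedling island, with 11.3% within 1 kb.

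**Figure D1:**
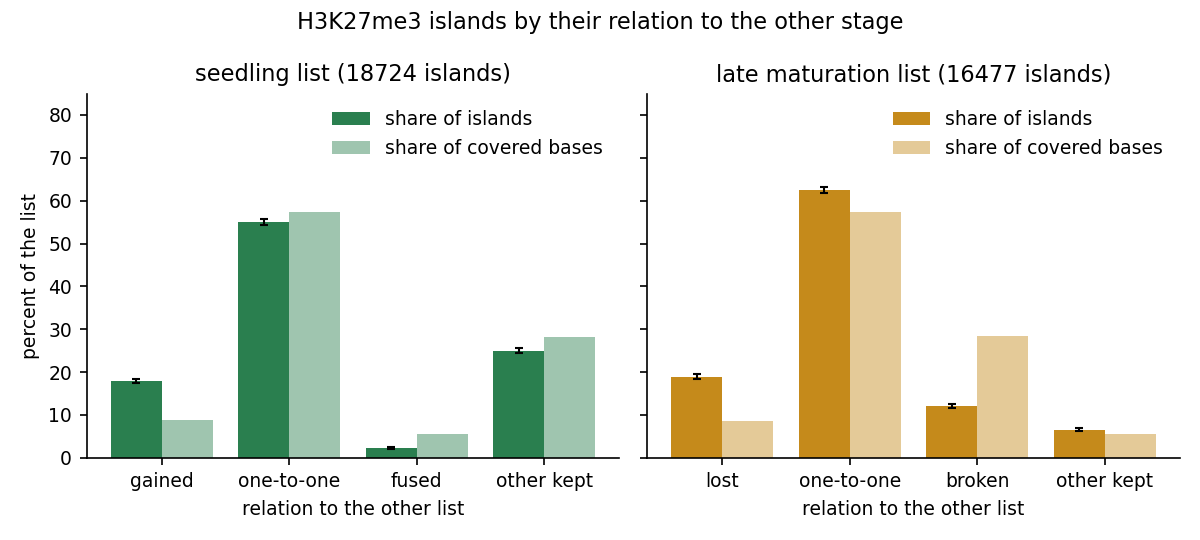
Share of islands (dark bars, with 95% Wilson intervals) and of covered bases (pale bars) in each relation to the other stage, for the seedling list on the left and the late maturation list on the right. Broken islands are 12.1% of the late maturation islands but 28.4% of the bases that list covers, while gained and lost islands take smaller shares of bases than of islands.

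Of the bases covered at late maturation only, most lay inside islands that were kept. Both lists shared 68.3 Mb, which is 84.1% of the seedling bases and 69.5% of the late maturation bases. Seedling islands covered 12.9 Mb that late maturation islands did not, and 44.5% of these bases belonged to kept islands. Late maturation islands covered 29.9 Mb that seedling islands did not, and 71.7% of these bases belonged to kept islands. The larger part of the late maturation length that was not retained therefore came from the edges and interiors of persisting islands.

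Among gained islands of at least 2 kb with nothing in the deposited late maturation list, the one with the highest relative enrichment lay on chromosome 5 from 8767401 to 8770200, with 822 ChIP and 268 control reads in seedlings and a relative enrichment of 2.20. The same place carried an island in cotyledon-stage embryos (2.09) and early maturation embryos (1.11), and none in mid- or late maturation embryos. A place on chromosome 18 came next from 46009201 to 46016800, where seedlings had 1779 ChIP and 617 control reads and a relative enrichment of 2.07. It was followed by an island on chromosome 16 from 4790801 to 4795200, with 871 ChIP and 305 control reads and a relative enrichment of 2.05. The places on chromosomes 18 and 16 had no island in any of the 4 embryo lists, as deposited. All 3 places overlapped H3K4me3 peaks in both seedlings and late maturation embryos.

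Among lost islands of at least 2 kb with nothing in the deposited seedling list, the highest relative enrichment belonged to an island on chromosome 2 from 34313401 to 34316200, with 358 ChIP and 140 control reads and a relative enrichment of 2.02 at late maturation. This place was already covered in cotyledon-stage (0.80), early maturation (0.98) and mid-maturation embryos (1.29), and it overlapped 1 H3K4me3 peak in seedlings and 1 at late maturation. An island on chromosome 16 from 5955201 to 5957200 followed with 124 ChIP and 51 control reads and a relative enrichment of 1.93. It had a counterpart at the cotyledon stage only (1.78). The third was on chromosome 9 from 17689401 to 17691400, with 85 ChIP and 35 control reads and a relative enrichment of 1.92, and with islands at the cotyledon stage (1.49) and at mid-maturation (1.09). The last 2 overlapped no H3K4me3 peak in either list.

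Wide late maturation islands were often found in pieces in seedlings. A late maturation island was counted as broken where it overlapped at least 2 seedling islands that were all narrower than itself. This held for 1992 islands, 12.1% of the list, and these islands covered 27.9 Mb with a median width of 12000 bp (quartiles 8000 and 17600 bp). The reverse, a seedling island fused from at least 2 narrower late maturation islands, was seen 411 times, 2.2% of the seedling list. The broken share was 1.67% for late maturation islands of 2 to 5 kb, 13.8% for 5 to 10 kb, 42.1% for 10 to 20 kb and 70.5% (66.4 to 74.2) for 20 kb or more. For fused islands, the share of the seedling list was 0.585% at 2 to 5 kb 4.82% at 5 to 10 kb, 10.3% at 10 to 20 kb and 19.8% (14.9 to 25.8) at 20 kb or more. Wide islands thus had several partners more often in either direction, and breaks outnumbered fusions in each of these width classes.

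Most breaks were single and narrow. Of the broken islands, 1571 met 2 seedling islands, 337 met 3 and 84 met 4 or more, up to 7. The pieces had a median width of 3400 bp, and together they covered 75.4% of the median broken island (quartiles 63.0% and 84.8%). The 2524 gaps between pieces had a median width of 1000 bp and summed to 3.65 Mb, which is 52.8% of the bases that broken islands did not retain. The remaining bases lay outside the outermost pieces. Of the gaps, 56.7% measured 800 or 1000 bp, the shortest lengths that the island caller does not bridge, and 83.5% measured at most 2 kb. Joining islands of the same list up to 2 kb apart brought the count of broken islands to 973 and that of fused islands to 206. Median relative enrichment was 1.13 for the pieces in seedlings and 1.25 for the broken islands at late maturation, both above the typical island of the stage.

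The 3 islands with the most pieces are shown with their relative enrichment at both stages. On chromosome 6 from 48289201 to 48333200, a late maturation island of 44000 bp corresponded to 7 seedling islands of 800 to 11600 bp, which covered 74.5% of it. Relative enrichment over the pieces was 1.35 in seedlings, against 1.56 for the whole island at late maturation. On chromosome 7 from 4025201 to 4058800, 7 seedling islands covered 65.5% of a late maturation island of 33600 bp, with a relative enrichment of 1.14 in seedlings and 1.18 at late maturation. The third, of 44400 bp on chromosome 7 from 2134801 to 2179200, met 6 seedling islands, which covered 83.3% of it, with a relative enrichment of 1.41 in seedlings and 1.39 at late maturation. The gaps in these 3 islands ran from 800 to 5400 bp. The seedling H3K4me3 list had 4, 2 and 8 peaks in these islands in the order given, and the late maturation list had 1 in each.

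The fused islands were led by one of 43600 bp on chromosome 8 from 44861601 to 44905200, where 1 seedling island replaced 4 late maturation islands of 3000 to 18600 bp. Its relative enrichment was 1.92 in seedlings, against 1.48 over the 4 late maturation islands. It carried 12 H3K4me3 peaks in seedlings and 13 at late maturation. A seedling island of 15000 bp on chromosome 18 from 2925801 to 2940800 joined 4 late maturation islands, with a relative enrichment of 1.12 in seedlings and 0.77 at late maturation. One of 32600 bp on chromosome 15 from 13040601 to 13073200 joined 3, with 1.24 in seedlings and 1.30 at late maturation.

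The gaps inside broken islands held little H3K4me3, a readout that played no part in finding them. A seedling H3K4me3 peak overlapped 224 of the 2524 gaps, or 8.87% (7.83 to 10.0), and a late maturation peak overlapped 136, or 5.39% (4.57 to 6.34). Measured over bases, seedling H3K4me3 peaks covered 2.05% of the gaps, against 7.71% of the retained pieces, and late maturation peaks covered 1.17% of the gaps, against 4.16% of the pieces. In 118 gaps a peak was present in seedlings only, and in 30 at late maturation only, while 2270 gaps had no peak at either stage. The gaps with H3K4me3 were thus a small minority, and the mark was sparser there than in the pieces in both stages, that is, also at late maturation, where H3K27me3 islands ran through the gap. Gaps over 2 kb overlapped a seedling H3K4me3 peak more often, in 21.4% of 416 cases (17.7 to 25.6), which their greater length also favours. Sparse H3K4me3 was not particular to breaks. Of the 435 gaps inside fused islands, 8.51% overlapped a seedling peak and 6.44% a late maturation peak. Seedling peaks covered 2.43% of the bases of these gaps and 7.20% of their pieces, and late maturation peaks 1.37% and 5.46%.

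**Figure D2:**
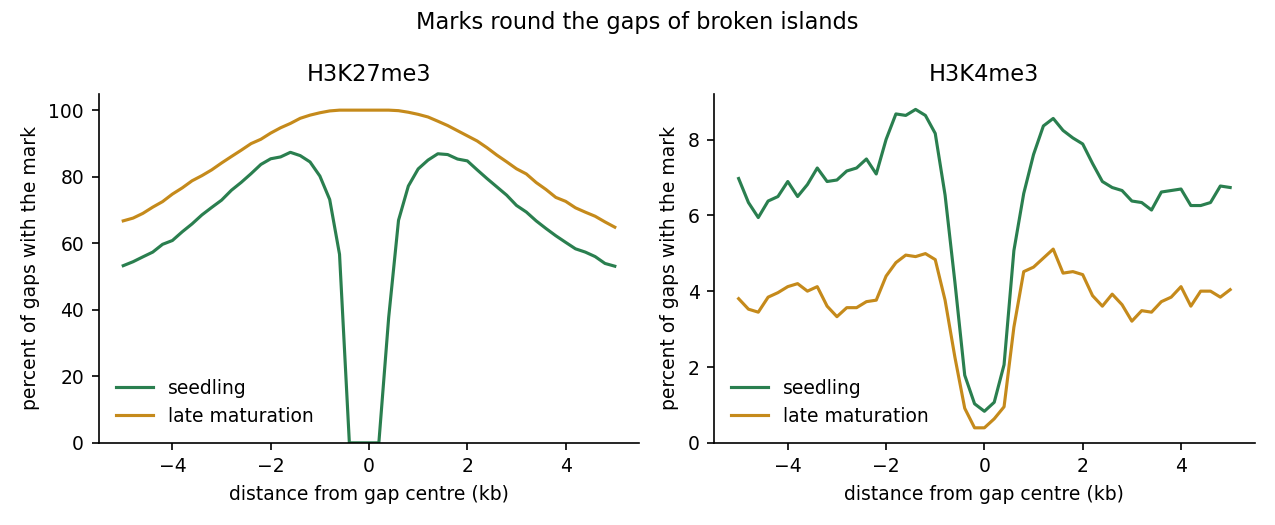
Share of the 2524 gaps of broken islands covered by an H3K27me3 island (left) or an H3K4me3 peak (right) at each distance from the gap centre in kb, for seedlings and late maturation. H3K27me3 is at 0% in seedlings and 100% at late maturation at the centre by construction, and H3K4me3 dips at the centre at both stages, to 0.832% in seedlings and 0.396% at late maturation.

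Before late maturation, most of these gaps had been inside H3K27me3 islands. Cotyledon-stage islands covered 78.6% of the gap bases, early maturation islands 76.5% and mid-maturation islands 67.0%. The corresponding cover of the retained pieces was 95.3%, 92.3% and 91.5%. Of the gaps, 1593 (63.1%) lay entirely within a mid-maturation island.

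Where 1 island met 1 island, seedling islands were on the whole narrower. There were 10289 such pairs, with a median width of 3400 bp in seedlings and 4400 bp at late maturation. The seedling island was narrower in 6798 pairs (66.1%), wider in 2464 (23.9%) and equally wide in 1027. The median of log2(seedling width over late maturation width) was -0.21 (quartiles -0.66 and 0.00), which corresponds to a seedling width of 0.862 of the late maturation width. Of the pairs, 29.2% were at least 1.5-fold narrower in seedlings and 7.66% at least 1.5-fold wider. In 61.5% of the pairs the seedling island lay within the borders of the late maturation island, and in 23.2% it enclosed it. Both borders were identical in 707 pairs.

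Narrowing differed with size. Grouped by the mean width of both islands, the median log2 width ratio was 0.00 below 2 kb, -0.30 from 2 to 5 kb, -0.21 from 5 to 10 kb, -0.13 from 10 to 20 kb and -0.04 from 20 kb. The median shift of each border was 200 bp inwards, 1 window of the island caller. The short pairs can change only in steps of that window, and the few widest pairs, 109 in number, kept nearly the same width. One-to-one pairs leave out broken islands, which were 368 of the 522 late maturation islands of at least 20 kb. A wide island that narrowed strongly can also fall in a lower class of mean width. The part of this selection in the differences by size was not tested. On all 20 chromosomes the seedling islands covered less than the late maturation islands, with a ratio of covered length between 0.802 on chromosome 2 and 0.891 on chromosome 4.

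**Figure D3:**
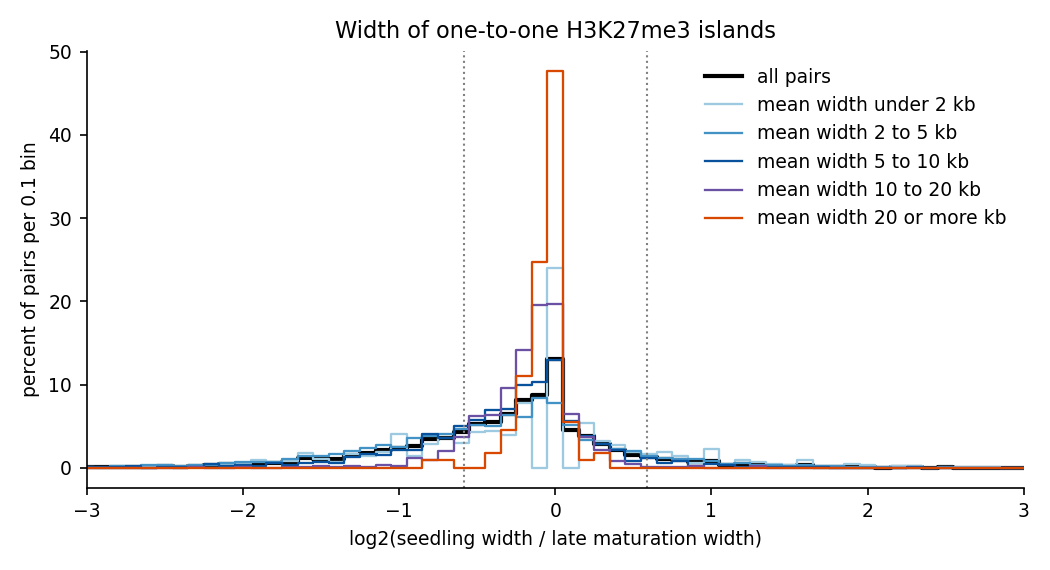
Distribution of log2(seedling width / late maturation width) over the 10289 one-to-one pairs, in percent of pairs per bin of 0.1, for all pairs and by the mean width of both islands. The dotted lines mark a 1.5-fold change, and more pairs lie to the left of the left line (29.2%) than to the right of the right line (7.66%).

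Among pairs in which both islands measured at least 1000 bp, the most strongly narrowed one lay on chromosome 15, where a late maturation island from 46454001 to 46468000 met a seedling island of 1000 bp from 46457401 to 46458400, a 14.0-fold difference. Relative enrichment hardly differed there, 1.17 in seedlings and 1.26 at late maturation. On chromosome 13, a late maturation island from 35743001 to 35769800 met a seedling island from 35746001 to 35748400, 11.2-fold narrower, with a relative enrichment of 0.61 in seedlings and 0.94 at late maturation. On chromosome 8, a late maturation island from 8104001 to 8115200 met a seedling island from 8105001 to 8106200, 9.33-fold narrower, with a relative enrichment of 0.74 in seedlings and 0.87 at late maturation. The chromosome 15 and chromosome 8 places each held 1 further seedling island that was among the dropped ones.

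In the opposite direction and under the same limit on width, a seedling island on chromosome 13 from 984801 to 997000 was 10.2-fold wider than its late maturation counterpart from 985801 to 987000. A seedling island on chromosome 11 from 8063001 to 8073000 was 8.33-fold wider, and its relative enrichment was 1.01 in seedlings, against 2.17 in the short late maturation island. The third, on chromosome 9 from 6839001 to 6847400, was 7.00-fold wider, with a relative enrichment of 1.096 in seedlings and 1.15 at late maturation. All 3 places overlapped H3K4me3 peaks in both lists.

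Relative enrichment of the pairs was spread widely about no change. The median of log2(seedling over late maturation) was -0.02, with quartiles of -0.29 and 0.30. Of the pairs, 1203 were at least 1.5-fold higher in seedlings (11.7%) and 776 at least 1.5-fold lower (7.54%). By mean width of both islands, 456 pairs were higher and 109 lower below 2 kb, and 534 and 418 from 2 to 5 kb. Counts were 190 and 219 from 5 to 10 kb, 22 and 30 from 10 to 20 kb, and 1 and 0 from 20 kb. The median counting error of a pair's log2 ratio was 0.18 (standard error from its 4 read counts), and for 1948 of these higher or lower pairs the 95% counting interval did not include 0. Over the 10289 pairs, relative enrichment in seedlings and at late maturation had a Spearman correlation of 0.42, given as a description, since the pairs share libraries and dropping weak islands limits the range at both stages. Change of width and change of relative enrichment were nearly unrelated over pairs (Spearman -0.01).

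The pairs on either side differed in H3K4me3. Among pairs at least 1.5-fold higher in seedlings, 50.2% overlapped a seedling H3K4me3 peak and 50.04% a late maturation peak. Among pairs at least 1.5-fold lower, these shares were 33.8% (30.5 to 37.2) and 21.1% (18.4 to 24.1), and among the pairs in between they were 46.9% and 33.2%. The median width in seedlings was 2200 bp for the higher and 3400 bp for the lower pairs, and the part of width in these shares was not tested. The sides also differed in control reads per kb. These were at least 2 times the list median at either stage in 344 of the 1203 higher and 9 of the 776 lower pairs. The H3K4me3 shares were not computed without such pairs. A mid-maturation island was present at 77.9% of the higher, 94.2% of the lower and 87.6% of the other pairs.

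Control reads are a term of the ratio by which pairs were called higher, so their density in these pairs is a description. Of the 424 pairs at least 2-fold higher in seedlings, 240 (56.6%) had a control density at least 2 times the median of the late maturation list, and 10 (2.36%) had such a density in the seedling list. Among pairs within 1.5-fold, these shares were 0.674% in the seedling list and 2.54% in the late maturation list. The 2-fold higher pairs were also short, with a median width of 1200 bp in seedlings and 1600 bp at late maturation. Over the 296 of them with an island at every stage, median relative enrichment was 1.47 in cotyledon-stage embryos, 1.503 in early, 0.70 in mid- and 0.75 in late maturation embryos, and 1.83 in seedlings. Median control density, as a multiple of the list median, was 1.09, 1.19, 1.42, 2.08 and 1.11 in the same order. Late maturation is low and seedlings are high here by the choice of pairs, while the mid-maturation values played no part in it. The part of control density in the difference was not tested. Without the 580 pairs whose control density was at least 2 times the list median at either stage, 859 pairs (8.85%) were 1.5-fold higher in seedlings and 767 (7.90%) were 1.5-fold lower.

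**Figure D4:**
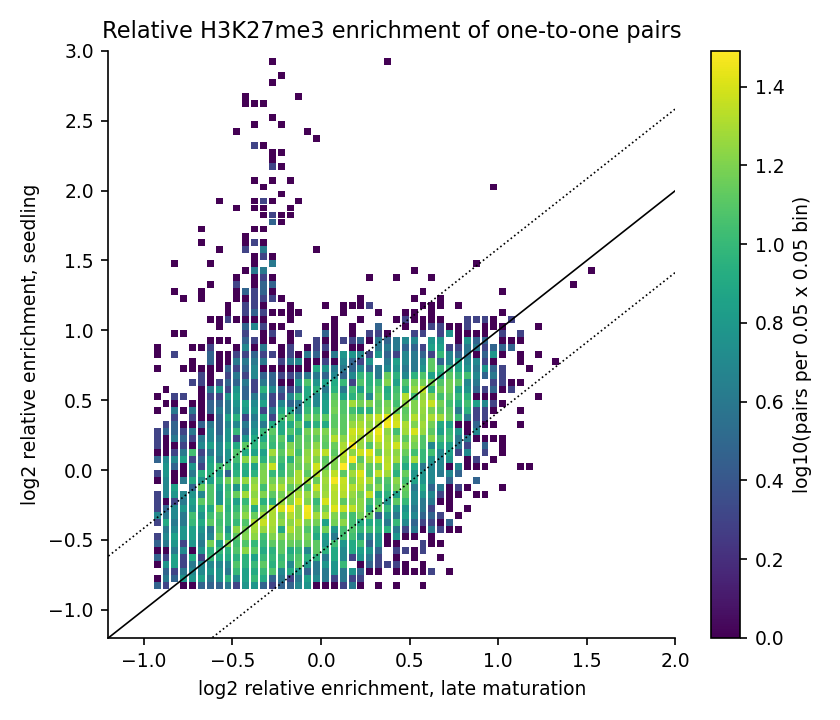
Relative enrichment of the 10289 one-to-one pairs on log2 axes, late maturation on the x axis and seedlings on the y axis, coloured by the number of pairs per bin (log10). The solid line marks equality and the dotted lines a 1.5-fold difference. A narrow column of pairs rises well above the main cloud at a late maturation value slightly below 0, and the straight lower edges are the dropped 5%.

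The 3 pairs of at least 2 kb with the largest difference in favour of seedlings all had dense control reads at late maturation. On chromosome 15 from 46624001 to 46629400, seedlings had 2964 ChIP and 478 control reads, against 4373 ChIP and 4091 control reads at late maturation. Relative enrichment was 4.45 in seedlings and 0.85 at late maturation, a log2 difference of 2.39 (95% counting interval 2.24 to 2.55), and the control density there was 1.14 times the list median in seedlings and 13.7 times at late maturation. On chromosome 18 from 37308201 to 37315400, relative enrichment was 3.55 in seedlings and 0.83 at late maturation (log2 difference 2.10, interval 1.95 to 2.26), with a control density of 1.00 times the median in seedlings and 9.12 times at late maturation. On chromosome 11 from 13570201 to 13572800, the values were 3.00 in seedlings and 0.80 at late maturation (1.91, interval 1.58 to 2.23), with a control density of 0.61 times the median in seedlings and 4.82 times at late maturation. In all 3, ChIP reads were also more numerous at late maturation than in seedlings.

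The 3 pairs of at least 2 kb with the largest difference in favour of late maturation had control densities between 0.68 and 1.35 times the list median. On chromosome 20 from 39167601 to 39172800, seedlings had 305 ChIP and 363 control reads, against 529 ChIP and 274 control reads at late maturation. Relative enrichment was 0.60 in seedlings and 1.53 at late maturation, a log2 difference of -1.34 (95% counting interval -1.65 to -1.04). This place overlapped 1 H3K4me3 peak in seedlings and none at late maturation. On chromosome 18 from 9905601 to 9910000, relative enrichment was 0.61 in seedlings and 1.54 at late maturation (log2 difference -1.34, interval -1.74 to -0.93). On chromosome 1 from 11168201 to 11174200, it was 0.60 in seedlings and 1.47 at late maturation (-1.29, interval -1.57 to -1.01). Neither of these overlapped an H3K4me3 peak. At the earlier stages the chromosome 1 place had values of 1.80, 1.45 and 1.41 from the cotyledon stage to mid-maturation, so seedlings were the low stage, whereas the chromosome 20 place had 0.75, 0.70 and 0.82, so late maturation was the high one.

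Gained islands overlapped islands of each earlier stage less often than the other seedling islands did, and those of the cotyledon stage most often. The lists of the earlier stages played no part in the choice of gained and lost islands. Of the gained seedling islands, 66.7% (65.1 to 68.2) overlapped a cotyledon-stage island, 24.3% (22.9 to 25.8) an early maturation island and 21.0% (19.7 to 22.4) a mid-maturation island. For the other seedling islands these shares were 97.3%, 87.1% and 89.0%. No island was present at any of the 3 earlier stages for 1064 gained islands (31.8%), and 482 (14.4%) had one at all 3. The cotyledon list is the longest of the series, and its share is the highest in each class.

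A larger share of the lost islands had been present through maturation. Of the 3115 lost late maturation islands, 72.3% (70.7 to 73.8) overlapped a cotyledon-stage island, 39.8% (38.1 to 41.5) an early maturation island and 44.4% (42.6 to 46.1) a mid-maturation island. For the kept late maturation islands the shares were 97.6%, 86.6% and 88.8%. An island at all 3 earlier stages was present for 914 lost islands (29.3%), and at none for 701 (22.5%). The gaps between classes were also present at equal width. Among seedling islands of 2 to 3 kb, 19.3% of 905 gained and 84.7% of 2860 kept islands overlapped a mid-maturation island, and among late maturation islands of 2 to 3 kb, 40.8% of 936 lost and 78.5% of 1750 kept islands did. Broken islands overlapped a cotyledon-stage, early maturation and mid-maturation island in 99.8%, 97.6% and 98.7% of cases, close to the 99.6%, 96.4% and 97.8% of all kept late maturation islands of 5 kb or more.

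H3K4me3 peaks covered a larger share of the bases of gained islands than of the other seedling islands. Seedling H3K4me3 peaks covered 17.4% of the bases of gained islands, against 8.08% of the bases of the other seedling islands. Late maturation H3K4me3 peaks covered 15.9% of the bases of gained islands, against 4.91% of those of the others. A late maturation H3K4me3 peak was present at 1218 of the 3351 gained islands (36.3%, 34.7 to 38.0), against 29.5% (28.8 to 30.2) of the kept seedling islands. A seedling peak was present at 1473 gained islands (44.0%, 42.3 to 45.6), close to the 41.9% (41.1 to 42.7) of the kept ones, and in the lists as deposited these shares were 41.6% for gained and 42.2% for kept islands. These shares take no account of width, and the kept islands are wider, with a median of 3400 bp against 1800 bp. Both stages had a peak at 1072 gained islands, seedlings only at 401 and late maturation only at 146. A peak that was present at late maturation and not in seedlings thus accompanied 4.36% of the gained and 2.53% of the kept seedling islands.

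At equal width, peaks of both stages were more frequent in gained than in kept seedling islands. For seedling peaks, the shares at 1 to 2 kb were 39.2% of gained and 29.3% of kept islands. They were 41.4% and 31.6% at 2 to 3 kb, and 52.1% and 38.5% at 3 to 5 kb. Among seedling islands of 1 to 2 kb, 31.3% of the gained (28.8 to 33.8) and 21.1% of the kept ones (19.5 to 22.7) overlapped a late maturation H3K4me3 peak. At 2 to 3 kb the shares were 34.9% for gained and 20.3% for kept islands, and at 3 to 5 kb they were 42.4% and 25.6%. The late maturation H3K4me3 peaks in gained islands had a median authors' score of 39.97, against 15.4 for those in kept seedling islands and 64.7 for the whole list.

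Lost islands differed less from kept ones in covered bases. Seedling H3K4me3 peaks covered 9.16% of the bases of lost islands and 7.57% of those of kept late maturation islands, and late maturation peaks covered 5.43% and 4.65%. At equal width below 5 kb, these shares were lower in lost than in kept islands. From 2 to 3 kb they were 7.72% and 9.84% for seedling peaks, and 5.20% and 6.52% for late maturation peaks. From 5 kb they were higher in lost islands, with 10.7% against 7.07% and 5.04% against 4.18%. At 2 to 3 kb, a seedling peak overlapped 19.7% of the lost islands (17.2 to 22.3) and 29.8% of the kept ones (27.7 to 32.0). A peak in seedlings only was found at 311 lost islands (9.98%) and at 2015 kept ones (15.1%). These shares count islands and the kept ones are wider, and peaks in seedlings only were not compared at equal width. The seedling H3K4me3 list is the longer one, with 52891 peaks against 41536 at late maturation, which adds to every count of peaks in seedlings only.

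**Figure D5:**
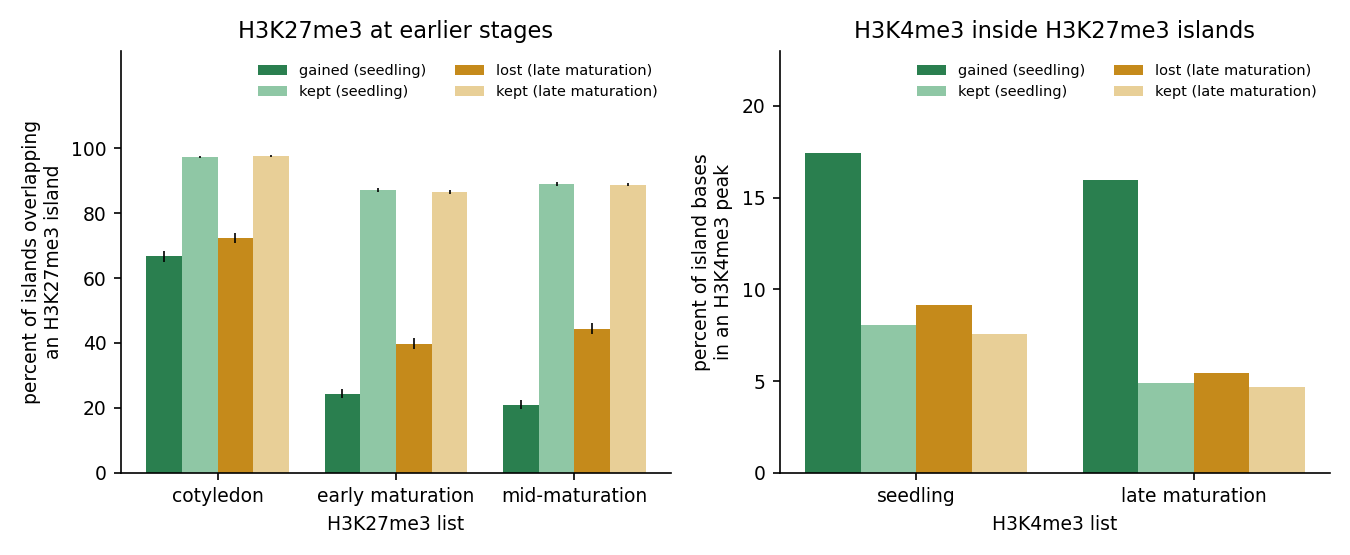
Left, share of gained, kept and lost islands that overlapped an H3K27me3 island at each earlier stage, with 95% Wilson intervals. Right, share of the bases of these islands covered by H3K4me3 peaks of seedlings and of late maturation. Gained islands are the lowest class at each stage on the left and the highest on the right, at 17.4% in seedlings and 15.9% at late maturation.

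Set beside the 2 comparisons most like it, the step from late maturation to seedlings had the largest shares of lost and of broken islands. Gained islands had their smallest share there, with 17.9% of the later list, against 23.2% between seedlings and mid-maturation and 19.6% between late and mid-maturation. Lost islands were 18.9% between seedlings and late maturation, 13.2% between seedlings and mid-maturation and 8.10% between late and mid-maturation. Broken islands were 12.1%, 10.9% and 4.38% of the earlier list in the same order, and fused islands 2.20%, 2.50% and 6.54% of the later list. The median log2 width ratio of one-to-one pairs was -0.21, -0.08 and 0.13, always later over earlier stage. Between seedlings and mid-maturation, too, breaks were more frequent than fusions and the median width ratio was below 0, by less than between seedlings and late maturation. Stage and chromatin preparation cannot be told apart in either comparison that includes late maturation. The mid-maturation list was also shorter, with 14888 islands after the drop, and stricter. Its lowest deposited fold over control was 1.59, against 1.34 in seedlings and 1.26 at late maturation. None of its dropped islands had a false discovery rate above 0.05. The part of these list differences in the shares was not tested. These comparisons share lists, and no test of their differences was possible.

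Along the chromosomes, breaks were commoner towards the ends. The broken share of late maturation islands was 14.4% (13.5 to 15.3) in the outermost 10% of the length at each end, 12.5% (11.7 to 13.3) between 10% and 25% and 8.12% (7.32 to 9.01) in the interior, with chromosome length taken as the end of the last island. Islands at late maturation were also wider near the ends, with a median of 4600 bp in the outermost part and 3600 bp in the interior. Lost islands showed no such gradient, with 18.1%, 19.5% and 19.03% from the ends to the interior, and gained islands made up 17.9%, 17.1% and 19.3% of the seedling islands. Relative enrichment shifted slightly, with a median log2 ratio of 0.03 in the outermost part, -0.03 between and -0.09 in the interior.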

How the data were processed

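Members, rules and alternatives were chosen with earlier results of these data known. Chromatin of 100 to 500 bp was precipitated and sequenced, per the labels; libraries had 15 PCR cycles. The submitters' processing notes name Bowtie 0.12.7, SAMtools 0.1.19, MACS2 and SICER 1.1; the genome build is not given in the sources used here. In the files, islands on chromosome 18 reach base 62265600, past the last gene (58285519) of the RefSeq table of Glycine_max_v4.0, so that table was not used and positions, counted from 1, are those of the lists.

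The authors deposited, for each H3K27me3 island, pooled ChIP and control read counts, a p-value with a false discovery rate, and a fold over control; within a list the deposited fold was 1 constant times ChIP over control (1.71 in seedlings, 1.90 at late maturation). The deposited H3K4me3 lists give a peak score whose meaning is not stated. Those of seedlings and late maturation carry differently formed names, and whether both were called with the same settings was not examined. Depth of single libraries is unknown.

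Computed here with Python 3.11.15, numpy 2.4.6, pandas 2.3.3 and scipy 1.17.1: the drop of islands below the 5th percentile of ChIP over control, overlaps (at least 1 bp), widths, relative enrichment and Wilson intervals; the functions were tested on simulated lists. No replicate test exists for pooled lists. Reads are not known to be independent molecules, so intervals cover counting error only. Named regions were the 3 highest per class: lost or gained islands (at least 2000 bp, nothing deposited in the other list) by relative enrichment, broken and fused islands by number of partners, and pairs by difference in relative enrichment (at least 2000 bp) or width (at least 1000 bp).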

Additional observations from a re-analysis of the deposited data

How the results depend on the processing

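No paired analysis was possible because the replicates of a stage share 1 list, and for the same reason leaving out a replicate was not run. Of the alternative values, 78 were labelled as unchanged, 20 moved and 3 changed direction. Counts were labelled unchanged within 1.5-fold of the reported one, shares and the median width ratio within the reported 95% interval. Differences between counts were labelled unchanged whenever the sign held. They could therefore shrink strongly, as the excess of higher over lower pairs did, from 427 to 22. More islands were gained than lost as reported, by 236, but with equal numbers of islands (by construction fewer seedling islands), with a width of at least 2000 bp and with an overlap of 50% of the island, the difference was -1697, -1426 and -1095, so neither gain nor loss can be called the larger. Gained islands numbered 1974 with a width of at least 2000 bp, and lost islands 5022 with an overlap of 50%. Broken islands numbered 973 and fused islands 206 when islands up to 2000 bp apart were joined. With the lowest 25% dropped, the median log2 width ratio was -0.23, 466 pairs were 1.5-fold wider, 593 were higher and 366 lower in relative enrichment; with a width of at least 2000 bp, 447 were wider and 659 higher, and higher exceeded lower by 22 pairs only. In the lists as deposited, H3K4me3 in seedlings was found at 41.6% of gained, 42.2% of kept and 30.3% of lost islands, so that gained islands no longer exceeded kept seedling islands in this share, and H3K4me3 at late maturation at 34.5% of gained and 23.002% of lost islands. There, cotyledon-stage islands met 63.0% of gained and 70.6% of lost islands, and early and mid-maturation islands met 21.9% and 18.7% of gained ones. With 50% of the H3K4me3 peak inside the island, 34.7% of gained islands had one at late maturation and 23.7% of lost islands had one in seedlings. Leaving out pairs with high control density was an alternative chosen after seeing the data. The cause of these changes was not tested. Breaks exceeded fusions and narrower pairs exceeded wider ones under all alternatives run on them.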

Other observations

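Chromosomes differed in how many islands were gained more than in how many were lost. Gained islands made up 11.9% of the seedling islands on chromosome 16, the lowest of the 20 chromosomes, and 21.5% on chromosome 17, the highest. Lost islands made up between 16.8% of the late maturation islands on chromosome 19 and 20.9% on chromosome 18. Chromosome 16 also had the lowest median log2 ratio of relative enrichment, -0.14, where chromosome 13 had the highest, 0.06. The broken share ran from 9.22% on chromosome 1 to 15.1% on chromosome 9. These are single values per chromosome from pooled lists, and none of the differences was tested.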
